A study of Rattus norvegicus with 17 samples.

Results

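This section follows 8 genes of the dystrophin complex and its neighboring membrane anchors in rat gastrocnemius, a fast hindlimb muscle. They were chosen by gene symbol from the deposited count table: Dmd, Utrn, Dag1, Sgca, Sgcb, Sgcd, Sspn and Itga7. All 8 were found among the 32495 named entries of the table, each on a single entry, and all 8 were among the 11856 entries that passed the filter on low counts. The samples came from healthy rats, from tumor-bearing rats without chemotherapy and from tumor-bearing rats given chemotherapy, and every group was on the control diet. Tumor type, drug, strain, sex and age are not stated in the labels. There were 5 healthy, 5 tumor and 7 chemotherapy libraries. Libraries 11 and 12 of the chemotherapy group were closer to each other than any other pair within a group, though further apart than counting noise alone would give. They were summed, which left 6 chemotherapy samples and 16 in all. Nothing in the labels says whether each library is a separate animal, so p-values measure the spread between these samples only.

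Dystrophin is a long rod beneath the muscle fiber membrane that ties the actin cytoskeleton to a group of membrane proteins. Dystroglycan passes the link through the membrane to laminin outside, the sarcoglycans and sarcospan brace it, and the syntrophins and dystrobrevins dock signaling proteins to it from inside. Utrophin is the close relative that takes dystrophin's place at the neuromuscular junction and in many other cell types, and alpha-7 integrin is a separate laminin receptor of the fiber. Loss of dystrophin or of a sarcoglycan makes the membrane fragile under contraction and causes muscular dystrophy.

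Promoter windows from RefSeq (build GRCr8) were at hand for 6 of the 8 genes, with 3 windows for Dmd and 1 each for Utrn, Sgca, Sgcb, Sgcd and Sspn. Dag1 and Itga7 had no window. Shown here, 5′ to 3′, are the 250 bases before the start of Dmd, the member with the largest rise, and of Sgcb and Sgca, partners in the same sarcoglycan group whose counts moved in opposite directions. The Dmd window is the first of its 3, chrX:51205836-51206085 on the plus strand. The Sgcb window is chr14:34917413-34917662 on the plus strand, and the Sgca window is chr10:80416076-80416325 on the minus strand. Capitals mark the E-box CANNTG and the CArG box of serum response factor.
Dmd: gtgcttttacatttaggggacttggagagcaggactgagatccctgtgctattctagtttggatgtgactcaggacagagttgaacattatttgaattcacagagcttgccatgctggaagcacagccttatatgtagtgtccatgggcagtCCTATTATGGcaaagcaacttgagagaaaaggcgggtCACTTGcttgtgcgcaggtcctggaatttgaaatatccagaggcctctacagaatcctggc
Sgcb: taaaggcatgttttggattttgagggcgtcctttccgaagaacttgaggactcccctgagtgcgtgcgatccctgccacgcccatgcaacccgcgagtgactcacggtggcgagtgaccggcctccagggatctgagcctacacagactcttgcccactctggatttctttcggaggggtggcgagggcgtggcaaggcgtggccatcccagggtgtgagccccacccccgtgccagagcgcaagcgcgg
Sgca: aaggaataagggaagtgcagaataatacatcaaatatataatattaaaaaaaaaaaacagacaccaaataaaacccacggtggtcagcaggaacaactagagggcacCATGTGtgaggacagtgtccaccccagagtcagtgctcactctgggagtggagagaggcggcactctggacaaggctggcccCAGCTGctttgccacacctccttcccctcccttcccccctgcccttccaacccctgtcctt
A set of 5 motifs was searched on both strands: the E-box CANNTG bound by myogenic factors, the CArG box, the MEF2 site, the MCAT element CATTCC and the GC box GGGCGG. The Dmd window shown held 1 CArG box that begins 98 bases before the start and 1 E-box that begins 61 bases before it. Dmd windows 2 and 3, which overlap each other and are not shown, held neither motif, but 2 and 3 GC boxes. Of 33465 RefSeq windows of this length, 1.497% held a CArG box and 65.6% an E-box. The Sgca window held 2 E-boxes and the Sgcb window none of the motifs. The other shares over all windows were 2.96% for MEF2, 12.1% for MCAT and 30.5% for the GC box. A match describes letters only, and the count table does not tell which start was used.

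Total counts on named entries ran from 3894210 to 15719080 in healthy, 5422118 to 10857477 in tumor and 3020821 to 19965891 in chemotherapy samples. Every member had at least 150 counts in every sample. Levels are CPM, counts scaled to a common library size with TMM factors, and are compared between samples for the same gene, never between genes. Muscle fiber markers summed to between 204248 and 329626 CPM in all 16 samples, over the 9 of 12 listed markers in the table. The alignment names end in MB or VM, with a d added after MB for library 12, and what these marks stand for is not explained. MB was found on 4 of 5 healthy samples and on chemotherapy library 11, and VM on all others. Healthy libraries 1, 3 and 4 stood apart from healthy libraries 2 and 5 in several members, such as Dmd and Sgca, but not in Utrn or Itga7. Values without them are given beside the results. In Dmd, Sgcb, Sgcd, Dag1 and Sgca they lay farther from the chemotherapy samples than libraries 2 and 5 did. Smaller differences of these genes without them follow from that split and are no independent check.

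Compared with healthy muscle, the mRNA counts of the members in chemotherapy-treated tumor-bearing rats differed in both directions: Dmd, Sgcb and Sgcd were higher, while Dag1 and Sgca were lower. Dmd was 3.21-fold higher, Sgcd 1.91-fold and Sgcb 1.84-fold, and Sgca and Dag1 were 1.45-fold and 1.44-fold lower. Itga7 and Sspn were not called, and Utrn, with a log2 fold change of 0.03, was not called either. A gene was called at an edgeR adjusted p below 0.05 over all 11856 genes tested. By that rule 5 of the 8 members were called, where 13.7% of all genes tested were called. Of all genes, 7.3% were called higher and 6.41% lower, and the members gave 3 higher and 2 lower.

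**Figure D1:**
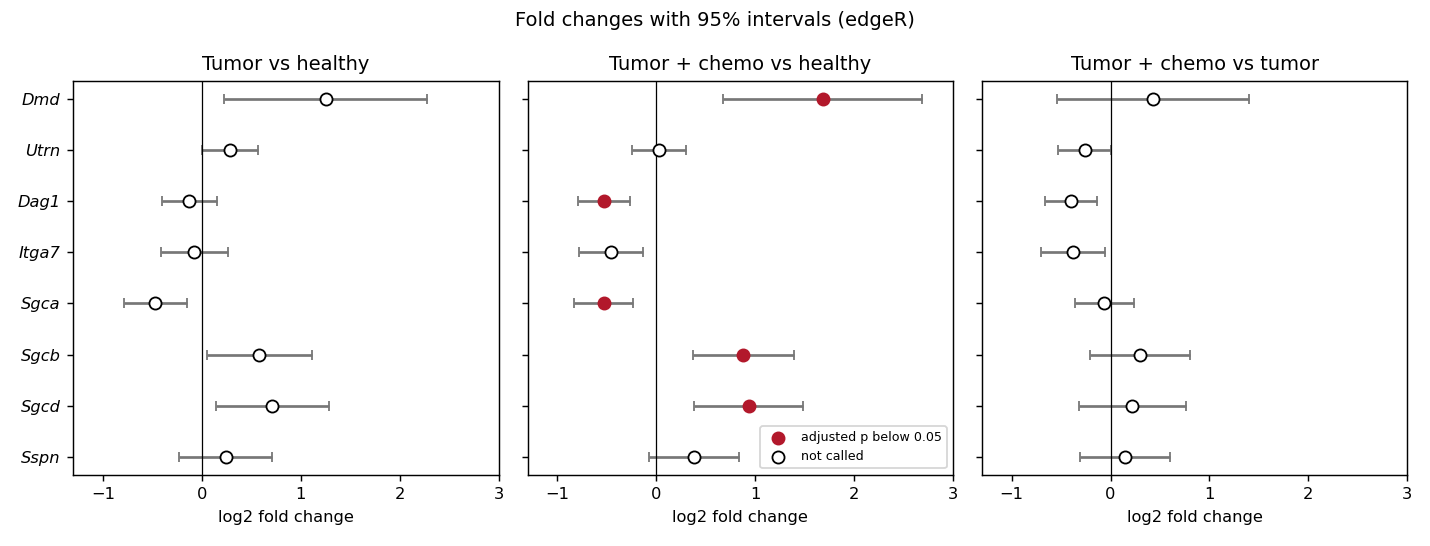
Log2 fold change of each gene in the 3 comparisons, with 95% intervals from edgeR; filled points passed an adjusted p of 0.05 and open points did not. In the middle panel Dmd, Sgcb and Sgcd lie right of 0 and Dag1 and Sgca left of it, and in the outer panels every point is open.

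Dmd encodes dystrophin itself. Its level was 176, 525, 91.1, 97.6 and 259 CPM in healthy libraries 1 to 5, and 922, 629, 224, 690.0 and 262 CPM in tumor libraries 6 to 10. In the 6 chemotherapy samples it ran from 313 to 991 CPM with a median of 861. Chemotherapy libraries 13 to 16 lay above every healthy sample and above tumor libraries 7 to 10, while chemotherapy libraries 11 and 17 lay within the healthy range, below healthy library 2. Means rose from 229.8 ± 179 CPM (SD, n = 5) in healthy to 735 ± 298 CPM (n = 6) in chemotherapy samples, a log2 fold change of 1.68 ± 0.48 (SE; 95% interval 0.67 to 2.69; edgeR adjusted p = 0.0352). The table gives a single entry for this gene, so full-length dystrophin and its shorter forms cannot be told apart.

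Utrn encodes utrophin. Its level was 113, 117, 112, 98.0 and 104 CPM in healthy libraries 1 to 5, and 139, 136, 163, 100.4 and 124 CPM in tumor libraries 6 to 10. Chemotherapy samples ran from 93.7 to 128 CPM with a median of 114, and the groups overlapped. The log2 difference between chemotherapy and healthy samples was 0.03 ± 0.13 (95% interval -0.24 to 0.30; edgeR adjusted p = 0.893). Among the members Utrn had the narrowest spread in healthy muscle, with a coefficient of variation of 7.15%, against 77.7% for Dmd.

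Dag1 encodes dystroglycan, the laminin receptor at the core of the complex. It stood at 427, 357, 407, 418 and 356 CPM in healthy libraries 1 to 5 and at 317, 387, 422, 286 and 388 CPM in tumor libraries 6 to 10. Chemotherapy samples ran from 238 to 319.8 CPM with a median of 270.4, so all 6 lay below all 5 healthy samples. The log2 fold change was -0.53 ± 0.13 (95% interval -0.79 to -0.26; edgeR adjusted p = 0.0271). Dag1 and Sgca were the 2 members whose chemotherapy and healthy samples did not overlap, both lower. Of all genes tested, 4% had no overlap, and 1.97% did so in the lower direction.

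The sarcoglycans are single-pass proteins that assemble with one another beside dystroglycan, and they did not move together. Sgca, the muscle-specific alpha-sarcoglycan, stood at 247, 174, 221, 243 and 166 CPM in healthy libraries 1 to 5, and at 114, 132, 180.2, 148 and 185 CPM in tumor libraries 6 to 10. In chemotherapy samples it ran from 132 to 159 CPM with a median of 145, all below the lowest healthy sample. Its log2 fold change was -0.53 ± 0.14 (95% interval -0.83 to -0.23; edgeR adjusted p = 0.0308).

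Sgcb, beta-sarcoglycan, stood at 128, 214, 89.9, 71.2 and 142 CPM in healthy libraries 1 to 5 and at 235, 218, 104, 237 and 170.4 CPM in tumor libraries 6 to 10. Chemotherapy samples ran from 177 to 271 CPM with a median of 246, and overlapped the healthy group through healthy library 2 alone. The log2 fold change was 0.88 ± 0.25 (95% interval 0.37 to 1.40; edgeR adjusted p = 0.0331). Sgcd, delta-sarcoglycan, stood at 28.3, 51.1, 20.8, 22.4 and 38.3 CPM in healthy libraries 1 to 5 and at 68.2, 70.0, 32.0, 57.8 and 32.9 CPM in tumor libraries 6 to 10. It ran from 40.0 to 76.1 CPM with a median of 64.6 in chemotherapy samples, where again healthy library 2 alone reached into the range. Its log2 fold change was 0.93 ± 0.26 (95% interval 0.38 to 1.49; edgeR adjusted p = 0.0337).

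Sspn encodes sarcospan, the small membrane-spanning partner of the sarcoglycans. It stood at 55.2, 94.2, 50.5, 38.2 and 84.2 CPM in healthy libraries 1 to 5, at 101, 89.8, 45.3, 77.0 and 65.6 CPM in tumor libraries 6 to 10, and from 70.0 to 95.3 CPM with a median of 85.3 in chemotherapy samples. The groups overlapped, and the log2 fold change was 0.39 ± 0.22 (95% interval -0.07 to 0.84; edgeR adjusted p = 0.206). Itga7, the alpha chain of the fiber's laminin-binding integrin, stood at 88.2, 54.9, 71.8, 96.2 and 106 CPM in healthy libraries 1 to 5 and at 81.8, 91.6, 89.5, 69.2 and 63.6 CPM in tumor libraries 6 to 10. All 6 chemotherapy samples, from 52.8 to 70.9 CPM with a median of 59.6, lay below the healthy median, and healthy library 2 lay within their range. The log2 fold change of Itga7 was -0.46 ± 0.15 (95% interval -0.78 to -0.14) and just missed the threshold with edgeR (adjusted p = 0.0513), while the DESeq2 Wald test called it lower (adjusted p = 0.0335). Of 11 fits that each left out 1 library, edgeR called it in 2. These left out healthy library 2, the lowest healthy sample (adjusted p = 0.00688), or chemotherapy library 11, the highest of its group (adjusted p = 0.0337). The highest edgeR adjusted p in the 11 fits was 0.138. With the MB or VM mark as a term Itga7 was not called (log2 fold change -0.50, edgeR adjusted p = 0.588).

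**Figure D2:**
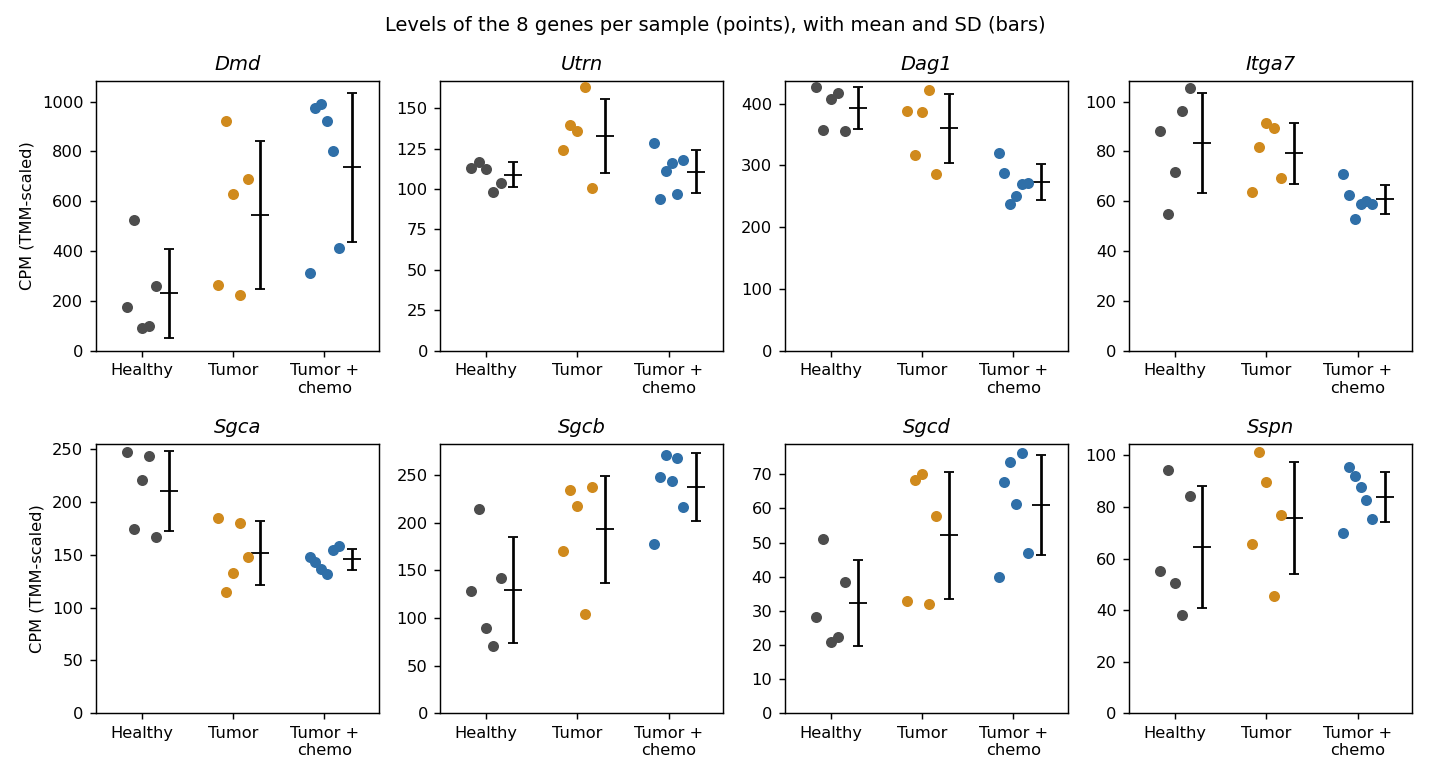
Level of each gene in CPM, 1 point per sample, with the mean and SD of each group as a bar beside the points; axes start at 0. The 6 chemotherapy samples of Dag1 and Sgca lie below the 5 healthy ones, and Dmd spreads more widely within every group than the other genes.

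All 5 calls depended on which libraries were kept. Each call ended without any 1 of healthy libraries 1, 3 and 4 or chemotherapy libraries 13, 14 and 15, where edgeR called no gene of the table. Over fits that each left out 1 library, the log2 fold change of Dmd ran from 1.47 to 2.23. That of Sgcb ran from 0.72 to 1.13 and that of Sgcd from 0.80 to 1.14. Dag1 ran from -0.58 to -0.49 and Sgca from -0.62 to -0.48. The highest edgeR adjusted p in these fits ran from 0.0871 for Dag1 to 0.113 for Dmd. Without chemotherapy library 16, Dag1 alone was called (adjusted p = 0.0492). With healthy libraries 1, 3 and 4 all left out, the log2 fold changes kept their direction at 0.90 for Dmd, 0.41 for Sgcb, 0.45 for Sgcd, -0.39 for Dag1 and -0.23 for Sgca, with none called. With 1 surrogate variable they were 0.27, 0.16, 0.13, -0.28 and -0.17 in the same order, with none called. With the MB or VM mark as a term they were 1.09, 0.66, 0.59, -0.38 and -0.39, again with none called. Within the VM libraries, which hold healthy library 5 alone of its group, they were 1.66, 0.81, 0.76, -0.44 and -0.20 with none called, and the MB libraries hold a single chemotherapy sample. With every gene kept in the table, Dmd missed the threshold (adjusted p = 0.0804).

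Tumor-bearing rats without chemotherapy, against healthy rats, gave no called member, and 0% of all genes tested were called. The members' fold changes nevertheless ran from -0.47 for Sgca to 1.25 for Dmd on the log2 scale, with 5 positive and 3 negative. Dmd averaged 546 ± 297 CPM in tumor samples (SD, n = 5), at a log2 fold change of 1.25 ± 0.49 (95% interval 0.23 to 2.28; edgeR adjusted p = 0.244), and all 5 tumor samples lay above the healthy median. Sgcd was at 0.71 ± 0.27, Sgcb at 0.58 ± 0.25 and Sgca at -0.47 ± 0.15, the last with all 5 tumor samples below the healthy median. Utrn was at 0.29 ± 0.14, Sspn at 0.24 ± 0.23, Itga7 at -0.08 ± 0.16 and Dag1 at -0.13 ± 0.13. At an unadjusted p below 0.05 there were 5 members, Dmd, Utrn, Sgca, Sgcb and Sgcd, where 18% of all genes tested passed that mark. Without healthy library 2, which had the highest Dmd, Sgcb and Sgcd of its group, edgeR called Dmd and Sgcb higher (log2 fold change 1.80 and 0.83, adjusted p = 0.0470 and 0.0488), among 504 genes called of 11995 tested. Without healthy libraries 1, 3 and 4 the log2 fold changes were 0.48 for Dmd, 0.23 for Sgcd, 0.11 for Sgcb and -0.17 for Sgca, and with the percent of small noncoding RNA as a term they were 0.35, 0.18, 0.067 and -0.23.

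Chemotherapy against no chemotherapy in tumor-bearing rats likewise gave no called member, and 0% of all genes were called. Dag1 had the smallest p of the members, with a log2 fold change of -0.40 ± 0.13 (95% interval -0.66 to -0.14; edgeR adjusted p = 0.778), and all 6 chemotherapy samples lay below the tumor median. Itga7 was at -0.38 ± 0.16 and Utrn at -0.26 ± 0.13, each with all 6 chemotherapy samples below the tumor median. Dmd was at 0.43 ± 0.46 (95% interval -0.54 to 1.40), Sgcb at 0.30 ± 0.24, Sgcd at 0.22 ± 0.26, Sspn at 0.15 ± 0.22 and Sgca at -0.06 ± 0.14. At an unadjusted p below 0.05 there were 2 members, Dag1 and Itga7, where 5.78% of all genes passed. Tumor and chemotherapy samples are each compared with the same 5 healthy samples, so the first 2 comparisons share their controls.

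Dystrophin and utrophin can stand in the same place, and the ratio of their counts within a library needs no scaling between libraries. Utrn counts per Dmd count were 0.642, 0.223, 1.23, 1.0 and 0.399 in healthy libraries 1 to 5 and 0.151, 0.216, 0.728, 0.145 and 0.474 in tumor libraries 6 to 10. In chemotherapy samples the ratio ran from 0.0963 to 0.409 with a median of 0.123, and overlapped the healthy range in libraries 11 and 17. The mean log2 ratio was lower with chemotherapy than in healthy samples by a difference of -1.85 (two-sided exact permutation p = 0.0173, adjusted over the 3 comparisons 0.0519), -1.09 between tumor and healthy (exact p = 0.135, adjusted 0.202) and -0.76 between chemotherapy and tumor samples (exact p = 0.206, adjusted 0.206). Without healthy libraries 1, 3 and 4 the difference was -0.86 for chemotherapy against healthy (exact p = 0.357, adjusted 0.536) and -0.10 for tumor against healthy (exact p = 0.952, adjusted 0.952). A within-library ratio of the alpha and beta sarcoglycans also spread widely in healthy samples: Sgca counts per Sgcb count ran from 0.813 to 3.41 in healthy, 0.487 to 1.73 in tumor and 0.504 to 0.834 in chemotherapy samples.

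**Figure D3:**
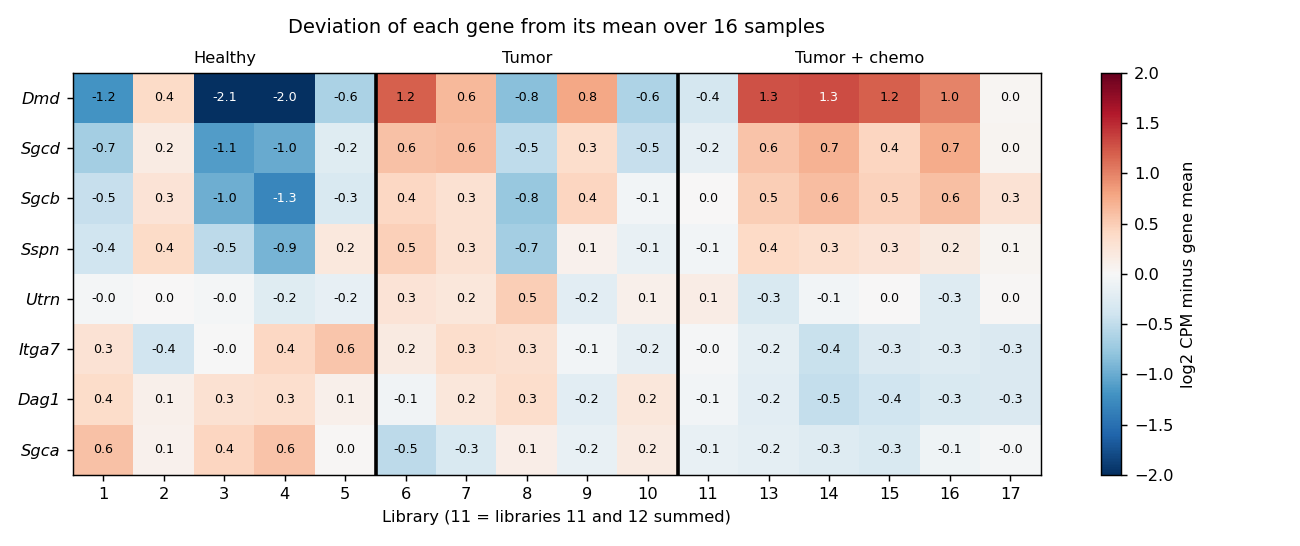
Log2 CPM of each gene minus its mean over the 16 samples, by library; vertical lines separate healthy, tumor and chemotherapy samples, and red is above and blue below the gene's mean. Dmd, Sgcd, Sgcb and Sspn share their high and low libraries across all 3 groups, and Sgca and Dag1 run the other way.

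Several of the members varied together across samples, within the groups as well as between them. Utrn was only weakly tied to the others over the 16 samples, where its r with each of them lay between -0.19 and 0.32. In the 11 VM samples its r lay between -0.57 with Sgcb and 0.61 with Dag1. Over deviations from the group means it lay between -0.29 with Sgcb and 0.45 with Dag1. For Itga7 the r with Dmd was -0.53 over the 16 samples and -0.31 over deviations from the group means. Its r with all the others lay between -0.63 with Sgcb and 0.70 with Dag1 over the 16 samples. Over deviations from the group means it lay between -0.46 with Sgcb and 0.40 with Dag1. Dmd and Sgcd had a Pearson r of 0.98 over the 16 samples (Spearman rho 0.92), 0.96 without the 2 samples farthest from the median, 0.95 in the 11 VM samples and 0.96 over deviations from the group means. Dmd and Sgcb had an r of 0.95 and a rho of 0.97, with 0.92 without the 2 farthest samples and 0.91 in the VM samples. Dmd and Sgca ran in opposite directions, with an r of -0.88 and a rho of -0.87, and -0.82 without the 2 farthest samples, -0.84 in the VM samples. For these 3 pairs the permutation p was 1e-05, 1e-05 and 2e-05 for r, the first being the smallest that 100000 permutations can give, and 4e-05, 4e-05 and 7e-05 after adjustment over the 28 pairs. For rho it was 1e-05, 1e-05 and 5e-05, or 9.33e-05, 9.33e-05 and 0.00028 adjusted. These permutations shuffled all 16 samples without regard to group, so differences between groups enter the p. No p was computed for the deviations from group means. Of the 28 pairs 11 had a positive and 17 a negative r. Such values are common in this table: of 8855 genes with at least 5 CPM, 17.5% had an r of 0.8 or more with Dmd and 11.2% an r of -0.8 or less. The MB samples, 5 in number, were too few for a value of their own.

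By the same measure, over 16 samples and as a description, the 3 genes most like Dmd were Eea1, Taok1 and Ppp1r12a (r = 0.99, 0.99 and 0.98). Those most like Sgcb were Capza2, Slc30a9 and Ptp4a2 (0.99 for each), those most like Sgcd were Dmd, Foxo4 and Taok1 (0.98 for each), and those most like Sspn were Smc5, Nr3c1 and Lsm14a (0.96 for each). Sgca was most like Acta1 and Ckm, skeletal alpha-actin and the muscle creatine kinase, and Fbxw5 (r = 0.95 for each). Dag1 was most like Cand2, Nisch and Prpf8 (0.95, 0.94 and 0.94). Itga7 was most like Pacs1, Lypla2 and Kif26a (0.89, 0.89 and 0.87), and Utrn like Smarca2, Kif13b and Dock9 (0.82, 0.80 and 0.79).

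One measure of the libraries, the percent of counts on small noncoding RNA genes, moved closely with most of the members. How many other genes of the table moved with it was not counted. As 17.5% of 8855 genes had an r of 0.8 or more with Dmd, it may not be particular to the members. Small noncoding RNA genes took 2.61%, 0.805%, 2.50%, 3.59% and 1.57% of counts in healthy libraries 1 to 5, and 0.812%, 1.05%, 2.15%, 0.862% and 1.70% in tumor libraries 6 to 10. In chemotherapy samples they took from 0.688% to 1.40% with a median of 0.876%. Within each group, libraries low in small noncoding RNA tended to be high in Dmd, and healthy library 2 had the lowest share and the highest Dmd of the healthy group. At nearly the same share, levels differed between some samples and not between others. Dmd was 525 CPM in healthy library 2 (0.805%), 922 CPM in tumor library 6 (0.812%) and 973 CPM in chemotherapy library 13 (0.813%). It was 259 CPM in healthy library 5 (1.57%) and 262 CPM in tumor library 10 (1.70%). These are single samples. Across the 16 samples the share and the log2 level of Dmd had a Pearson r of -0.93 and a Spearman rho of -0.92, each with a permutation p of 1e-05, the smallest that could be given (adjusted over the 8 members, 2e-05 and 8e-05). The r was -0.96 without the 2 farthest samples and -0.95 in the 11 VM samples.

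Over the other members r with that share was -0.95 for Sgcb, -0.93 for Sspn, -0.91 for Sgcd, 0.88 for Sgca, 0.76 for Dag1 and 0.59 for Itga7, with adjusted permutation p of 0.016 or less. The value for Itga7 dropped to 0.44 without the 2 farthest samples. For Utrn no relation was detected over the 16 samples (r = -0.02, permutation p = 0.936, adjusted over the 8 members 0.936). Its r was 0.35 without the 2 farthest samples and 0.52 in the 11 VM samples. With the share as a term in the fit, the log2 fold changes between chemotherapy and healthy samples were 0.50 for Dmd, 0.20 for Sgcb, 0.24 for Sgcd, -0.31 for Dag1 and -0.19 for Sgca, and no member was called. The share also differs between the groups, so share and group cannot be told apart here.

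**Figure D4:**
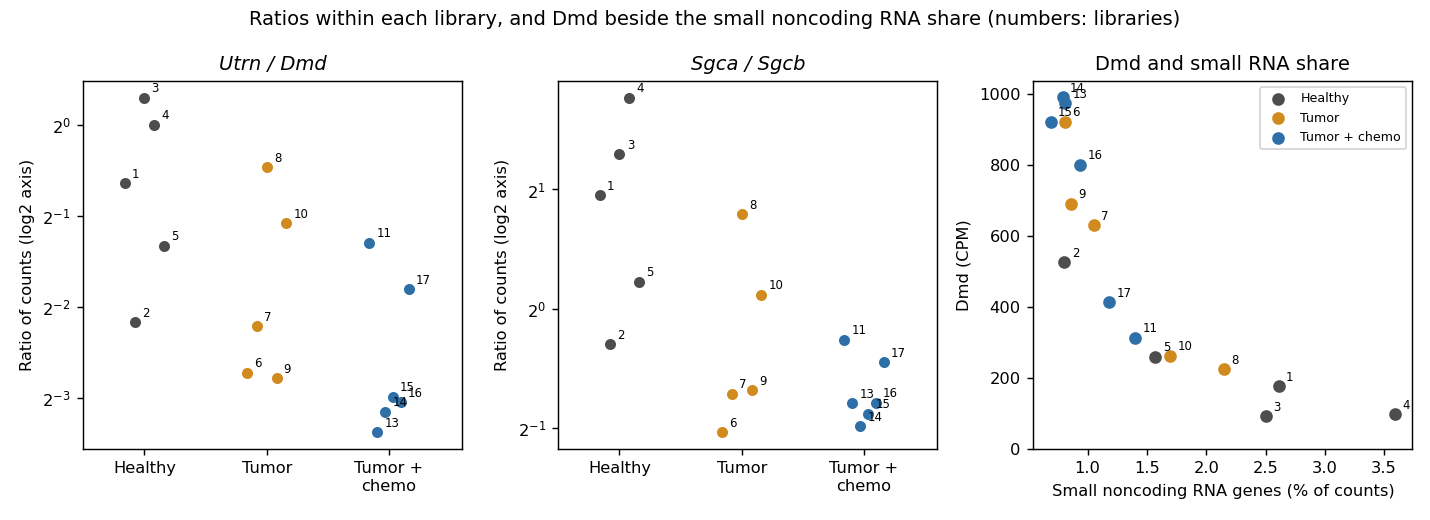
Left and middle, Utrn counts per Dmd count and Sgca counts per Sgcb count in each library on log2 axes; right, Dmd in CPM against the percent of counts on small noncoding RNA genes, 1 point per sample, labelled by library. Dmd is 800.3 CPM or more only in samples with under 1% of counts on small noncoding RNA, and the lowest values belong to healthy libraries 3 and 4.

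Markers of other cells in the muscle were summed beside these results. Of all genes tested, 6.41% were called lower and 7.3% higher between chemotherapy and healthy samples. A sum leans on its most abundant genes, such as Col1a1 and Col3a1 for fibroblasts, with medians of 3098 and 1552 CPM over all samples. In bulk muscle, fewer cells of a type and less RNA per cell cannot be told apart. Markers of pericytes and smooth muscle, cells that also carry utrophin, sarcoglycans and alpha-7 integrin, summed to 382 to 500.3 CPM in healthy and 258 to 355 CPM in chemotherapy samples, with 5 of 8 tested lower and none higher. Fibroblast markers summed to 4770 to 14469 CPM in healthy and 2364 to 10952 CPM in chemotherapy samples (4 of 8 lower), and endothelial markers to 219 to 249 and 193 to 214 CPM (1 of 7 higher, 1 lower). Of 9 muscle fiber markers tested, 3 were lower and none higher, at 229124 to 329626 CPM in healthy and 204959 to 239932 CPM in chemotherapy samples. Schwann cell markers overlapped, at 109 to 250.2 CPM in healthy and 98.9 to 372 CPM in chemotherapy samples, with 1 of 6 lower. Satellite cell markers summed to 53.8 to 93.0 CPM in healthy and 35.1 to 66.4 CPM in chemotherapy samples, with 1 of 5 lower. No marker was called in the other lists. Adipocyte markers had positive fold changes in 4 of 4 tested (median 1.89, sums 3.78 to 28.0 and 12.4 to 217 CPM). Macrophage markers were negative in 7 of 7 (median -0.26) and red blood cell markers in 5 of 5 (median -0.88). Cnn1, Sox10 and Cidec were at 0 counts in 1 sample each, Retn in 2 and Lep in 3. The part of these cells in the members' differences was not tested.

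The partners of the complex that are no members were read from lists of other pathway genes, with the share of all genes called, 13.7%, as the background. Between chemotherapy and healthy samples, of 10 tested genes for extracellular ligands of dystroglycan and alpha-7 integrin, 8 fell and none rose, or 80.0% called, with a median log2 fold change of -0.82 against -0.02 over all genes tested. Lama2, the laminin alpha-2 chain that dystroglycan binds in muscle, fell from 476 ± 107 CPM in healthy (SD, n = 5) to 270.3 ± 25.7 CPM in chemotherapy samples (n = 6), a log2 fold change of -0.82 ± 0.17 (edgeR adjusted p = 0.0261). Lamc1, its gamma-1 partner, was at -0.93 and Lamb1 at -1.16. Nid1 and Nid2, the nidogens that join laminin to collagen, were at -1.06 and -1.04, Lama5 at -0.82, Bgn at -0.76 and Lama4 at -0.69.

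Of 15 tested partners and adaptors inside the membrane or beside it 1 rose and none fell (median -0.12), which is 6.67% called, below the 13.7% of all genes: Sntb1, the beta-1 syntrophin, went from 41.7 ± 17.8 to 80.6 ± 23.2 CPM (log2 fold change 0.96 ± 0.30, edgeR adjusted p = 0.0415). Of 18 genes that glycosylate dystroglycan, 2 rose and 1 fell (median -0.26), or 16.7% called, near the share over all genes. Pomt1, which adds the first mannose, fell with a log2 fold change of -0.62, while Rxylt1, a xylosyltransferase of the laminin-binding glycan, and Dpm1, a subunit of the enzyme that makes the mannose donor, rose with 0.70 and 0.90.

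Of 29 genes of integrin adhesion and the costamere, 4 fell and none rose (median -0.24), or 13.8% called, near the 13.7% of all genes, of which 6.41% were lower. These were Flnc, the muscle filamin that binds sarcoglycans (-0.80), Des, the intermediate filament desmin (-1.09), Tln1, the integrin activator talin (-0.74), and Plec, the cytoskeletal linker plectin (-0.60). Of 22 genes of membrane repair and caveolae, 6 fell and none rose (median -0.15), or 27.3% called: Dysf, the repair protein dysferlin (-0.65), Ehd2 (-0.71), Ehd1 (-0.63), Capn1, a calcium-activated protease (-0.57), Cavin1, a caveolar coat protein (-0.51), and Anxa6, a membrane-binding annexin (-0.44).

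**Figure D5:**
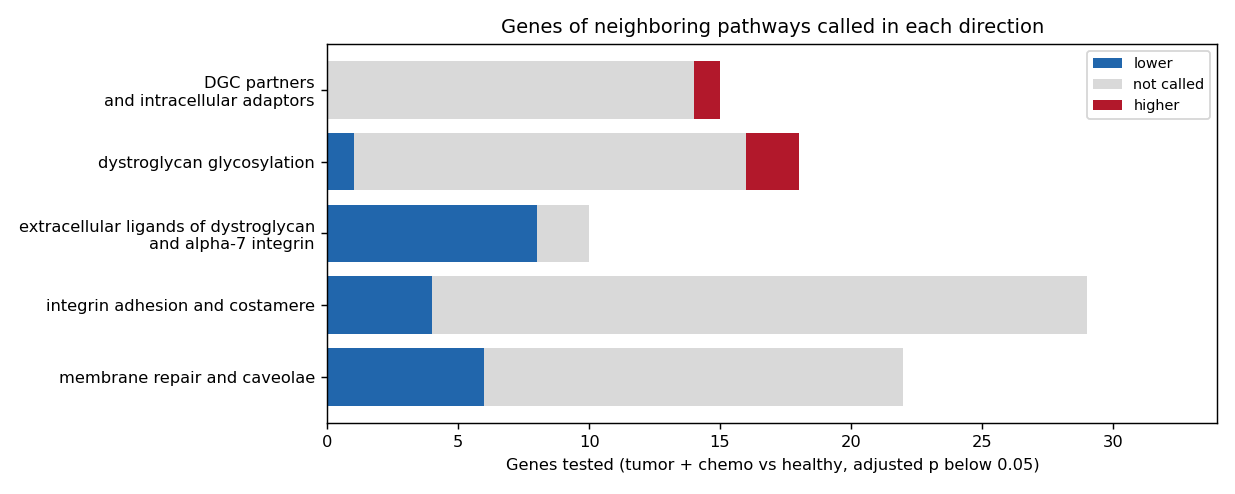
Number of tested genes called lower, not called or called higher (edgeR adjusted p below 0.05) between chemotherapy and healthy samples, for 5 lists of genes around the dystrophin complex. The ligand list has 8 of 10 genes lower, and the partner and glycosylation lists have 1 and 2 genes higher.

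In the other comparisons no gene of these lists was called, and the lists' smallest p belonged mostly to the genes named here. Between tumor and healthy samples Sntb1 was at 0.69 on the log2 scale, Dpm3 and Pomt1 at -0.99 and -0.46, Lamc1 and Lamb1 at -0.60 and -0.77, Des and Lims1 at -0.88 and 0.30, and Ehd1 and Capn1 at -0.59 and -0.36. All 10 ligand genes had negative fold changes, with a median of -0.42. Between chemotherapy and tumor samples Lmcd1 and Dtnbp1 were at -0.68 and 0.34, Rxylt1 and Gmppb at 0.61 and -0.51, Lama5 and Lamb2 at -0.61 and -0.47, Flnc and Tln1 at -0.78 and -0.50, and Cavin1 and Anxa6 at -0.32 and -0.25. The median of the ligand genes was -0.37 there, with all 10 negative.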

How the data were processed

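RNA from rat gastrocnemius was sequenced in 17 libraries, stranded and cleared of ribosomal RNA, per the labels' protocols. The authors deposited raw counts per gene entry, not normalized. Tools named in the submitters' processing notes are CASAVA (1.9), Trim Galore (version 0.4.1), FastQC (version 0.11.4), Bowtie2 and TopHat2 (version 2.0.10). For genome build, annotation, counting program and use of strand the answer is "not given in the sources used here", so reads of genes that overlap on opposite strands may not be told apart. Entries without a gene name (388, holding 0.102% to 0.373% of counts) were left out.

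Libraries 11 and 12 were summed: the chi-square between them, divided by its degrees of freedom, was 2.04, and 5.47 for the next closest pair within a group. Genes were tested with edgeR 4.0.16 (R 4.3.3; limma 3.58.1, DESeq2 1.42.0 and sva 3.50.0 in alternatives): filterByExpr with a minimum count of 10, TMM scaling, robust quasi-likelihood fits of all 16 samples in a single model of the 3 groups, and Benjamini-Hochberg adjustment over 11856 genes. The SE is the log2 fold change over the square root of F. Log2 CPM used a prior count of 2, and permutation tests were two-sided. Those of correlations shuffled all 16 samples without regard to group or to the MB or VM mark. The fit was tested on simulated data drawn for each gene on its own. These held no library factor shared across genes, so the simulation does not cover such a factor. Alternatives changed the scaling, filter, test, covariates and libraries.

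The members and all lists were chosen with earlier results of these data known. Named beside the members are the called genes of each list, or the 2 with the smallest p where none was called, and the 3 genes most like each member. Some genes this rule names are not reported here.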

Additional observations from a re-analysis of the deposited data

How the results depend on the processing

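No paired analysis was possible because the groups share no replicate numbers. With all libraries, 5 members and 1625 genes of the table were called between chemotherapy and healthy samples. Both counts were 0 with 1 surrogate variable, with the MB or VM mark as a term, without healthy libraries 1, 3 and 4, and, in 2 alternatives chosen after seeing the data, in the VM libraries alone and with the small noncoding RNA share as a term; the cause was not tested. Healthy libraries 1, 3 and 4 stand apart in these same data, so the fit without them is no independent check. The member count was 4 to 6 under the other scalings, filters and tests. The count over all genes was 884 with no filter, 2577 with the DESeq2 Wald test and 2444 with limma-voom. Scaled by total counts only, 1669 genes were higher and 348 lower, against 865 and 760 with TMM, and the median of all genes shifted to 0.12 (0.13 between tumor and healthy); no call of a member changed. Leaving out 1 library at a time gave 0 to 6 members and 0 to 3799 genes for chemotherapy against healthy, 0 to 2 members and 0 to 504 genes for tumor against healthy, and 0 to 3 genes for chemotherapy against tumor, where 0 members were called. Between tumor and healthy, DESeq2 called 40 genes and the small noncoding RNA term left 1; between chemotherapy and tumor, DESeq2 called 9, 1 surrogate variable 8 and the small noncoding RNA term 1. The Utrn to Dmd difference shrank to -0.86 for chemotherapy against healthy and to -0.10 for tumor against healthy without healthy libraries 1, 3 and 4 (adjusted p = 0.536 and 0.952). Its adjusted exact permutation p for chemotherapy against healthy passed the threshold without healthy library 2 (difference -2.20, adjusted p = 0.0429) and without chemotherapy library 11 (-2.11, 0.0476), against -1.58 at the other end of the leave-one-out range.

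Signs changed only for log2 fold changes that were not called. For tumor against healthy, Itga7 was 0.049 by total counts; with 1 surrogate variable Dag1 was 0.025, Itga7 0.032 and Sspn -0.19; with the MB or VM term Dag1 was 0.058 and Sspn -0.069; without healthy libraries 1, 3 and 4 Dag1 was 0.011 and Sspn -0.24; in VM libraries Dag1 was 0.018 and Sspn -0.15. With the small noncoding RNA term Dag1 was 0.023, Itga7 0.065 and Sspn -0.23. For chemotherapy against healthy, Sspn was -0.26 with 1 surrogate variable, -0.092 without healthy libraries 1, 3 and 4, and -0.24 with the small noncoding RNA term. For chemotherapy against tumor, 1 surrogate variable gave Dmd -0.048, Sgca 0.080, Sgcd -0.035 and Sspn -0.062, and the small noncoding RNA term gave Sgca 0.043 and Sspn -0.0087. Leaving out 1 library at a time, Itga7 ran from -0.20 to 0.013 for tumor against healthy, Utrn from -0.019 to 0.072 for chemotherapy against healthy, and Sgca from -0.15 to 0.016 and Sspn from -0.00060 to 0.27 for chemotherapy against tumor.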
